A study of Mus musculus with 8 samples.

Results

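The dystrophin-glycoprotein complex was followed in gastrocnemius, a calf muscle of mainly fast fibres, through 8 of its genes: Dmd, Utrn, Sgca, Sgcb, Sgcd, Dag1, Dtna and Sspn. They were taken by symbol from the named genes of a microarray table, and all 8 were found among the 19938 genes tested. Each was read by 1 probe set that carries its symbol alone. No filter on signal was applied, so all 8 entered the comparison. The 4 knockout samples carry the genotype labelled "HADAC5 KO", and the 4 wild type samples are their littermates, labelled "HDAC5 WT". Mice of both genotypes were 30 weeks old, ate a low-fat chow without restriction and had no further treatment. The labels cite an earlier published HDAC5 knockout line, and no promoter or Cre driver is named. Sex and any pooling of animals are not stated either. The samples are numbered, but nothing says that each came from its own animal, so the tests gauge variation among samples that may share a source.

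The complex links the cytoskeleton under the muscle fibre membrane to the basement membrane outside it. Dystrophin binds actin filaments and the intracellular end of dystroglycan, dystroglycan binds laminin outside, and the sarcoglycans and sarcospan stabilise that link. Dystrobrevin and the syntrophins attach signalling proteins to its inner face. Loss of dystrophin, or of a sarcoglycan, causes muscular dystrophy in mice and people. HDAC5, of the class IIa histone deacetylases, holds back transcription driven by MEF2 factors and is known as a regulator of muscle gene programmes.

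All values are log2 signals, 1 per probe set and array, and differences are knockout minus wild type on that scale. The threshold for a change was an adjusted p of 0.05 over all genes in limma, passed by 13 of 19938 genes (0.0652%), 8 higher (0.0401%) and 5 lower (0.0251%) in knockout muscle. Hdac5 itself was 8.33 ± 0.04 in knockout and 9.83 ± 0.08 in wild type muscle (SD, n = 4 each), with a limma adjusted p of 1.74e-07. Arrays correlated at 0.988 to 0.995 over all probe sets. All 10 myofibre markers, such as Acta1 and Ckm, lay at or above the 99.8th percentile of gene signals, which matches the labelled tissue. Xist was at 5.92 to 6.30 and the Y-linked Kdm5d, Eif2s3y and Uty were at 8.96 to 11.00 in all 8 arrays. This is a male pattern in every array, with no array standing apart, and it bears on the X-linked Dmd. In these bulk samples, fewer cells of a type and less RNA per cell cannot be told apart.

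None of the 8 genes of the complex changed, where 0.0652% of all genes did. At that share most sets of 8 genes would hold 0 changed genes, so the count is not read as stability of the complex. Their differences lay between -0.15 for Sgca and 0.20 for Dtna, and their limma adjusted p-values between 0.264 and 0.991. At an unadjusted p under 0.05 in limma there were 4 of 8, with Dtna, Sgcd and Dmd higher and Sgca lower, against 7.90% of all genes (4.72% higher and 3.18% lower). Knockout and wild type arrays did not overlap in 3 of 8, Dtna and Sgcd above and Sgca below, against 4.90% of all genes (2.91% above and 1.99% below). The median difference of the 8 genes was 0.051, beside 0.003 over all genes, and with 1 sample left out it was highest, 0.077, when knockout sample 2 was dropped and lowest, 0.038, when wild type sample 4 was dropped. All 8 were bright, between the 81.3rd and the 97.4th percentile of gene signals, although probe sets differ in affinity and levels are not compared between genes.

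**Figure D1:**
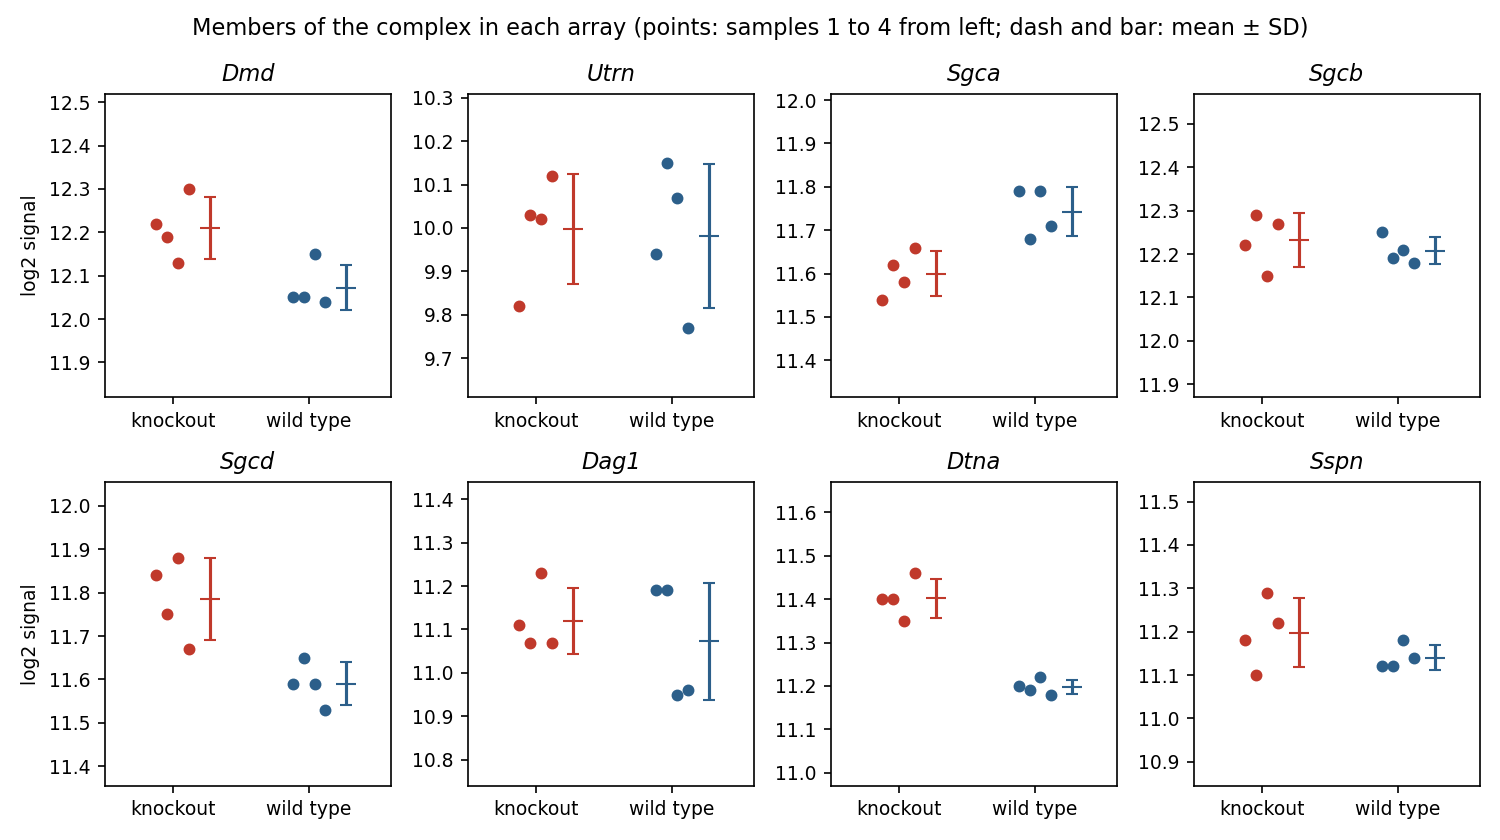
Log2 signal of the 8 complex genes in each array, with knockout samples on the left and wild type samples on the right of each panel; points are samples 1 to 4 from left to right, and the dash with its bar is the mean ± SD (n = 4). Every panel spans the same log2 range. The genotypes do not overlap for Dtna, Sgcd and Sgca, and the points of Utrn spread most.

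Dmd encodes dystrophin, the large scaffold that binds actin and dystroglycan. Its signal was 12.22, 12.19, 12.13 and 12.30 in knockout samples 1 to 4, against 12.05, 12.05, 12.15 and 12.04 in wild type samples 1 to 4. Knockout sample 3 lay just below wild type sample 3, and the other knockout samples lay above all wild type samples. The difference was 0.14 (SE 0.059, 95% interval 0.007 to 0.27), a ratio of 1.10 with an interval of 1.01 to 1.20, and limma gave an unadjusted p of 0.0399 and an adjusted p of 0.598. Without knockout sample 4 the unadjusted p was 0.109 in limma. The unadjusted p stayed under 0.05 with 1 sample left out only without knockout sample 3 (0.0274) or wild type sample 3 (0.0279).

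The promoter window of Dmd is shown because it holds the only MEF2 site found in the 10 windows of 7 of the complex genes, and MEF2 factors are the best known partners of class IIa deacetylases. It is RefSeq sequence of GRCm38.p6, chrX:82948620-82948919 on the plus strand, 250 bases before to 50 after an annotated start. Capitals mark the MEF2 site (first base at -244) and E-boxes (CANNTG, at -173, -61 and 40), counted so that 1 is the start base.
Dmd: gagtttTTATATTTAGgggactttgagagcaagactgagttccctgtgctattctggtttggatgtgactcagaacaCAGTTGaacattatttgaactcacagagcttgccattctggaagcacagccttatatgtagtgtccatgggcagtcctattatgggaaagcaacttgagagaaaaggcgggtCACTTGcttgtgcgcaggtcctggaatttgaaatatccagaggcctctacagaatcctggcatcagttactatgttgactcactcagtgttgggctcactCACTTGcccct
A MEF2 site was present in 3.19% and at least 1 E-box in 72.3% of the 32851 promoter windows of this length. The other Dmd start in the table, at chrX:85048045-85048344, held neither. A match of letters is a description and not a measured binding site.

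Utrn encodes utrophin, the autosomal relative of dystrophin, which sits at the neuromuscular junction in adult fibres and in endothelium. Its signal was 9.82, 10.03, 10.02 and 10.12 in knockout samples 1 to 4, against 9.94, 10.15, 10.07 and 9.77 in wild type samples 1 to 4. The genotypes overlapped fully, and the lowest arrays were knockout sample 1 and wild type sample 4, which had the lowest and the highest score on the first principal component of all genes (-16.5 and 18.84). The difference was 0.011 (SE 0.090, 95% interval -0.18 to 0.21, limma adjusted p = 0.991), and its sign turned under quantile normalization (-0.013) and with array weights (-0.030). The interval of the ratio ran from 0.88 to 1.15. Those 2 lowest arrays also had the lowest mean of 7 endothelial markers, at 9.97 each, where all arrays spanned 9.97 to 10.27, and the part of endothelial content in the Utrn values was not tested.

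The Utrn window is shown for its run of E-boxes, in capitals, some of which overlap. It is RefSeq sequence of GRCm38.p6, chr10:12861686-12861985 on the minus strand.
Utrn: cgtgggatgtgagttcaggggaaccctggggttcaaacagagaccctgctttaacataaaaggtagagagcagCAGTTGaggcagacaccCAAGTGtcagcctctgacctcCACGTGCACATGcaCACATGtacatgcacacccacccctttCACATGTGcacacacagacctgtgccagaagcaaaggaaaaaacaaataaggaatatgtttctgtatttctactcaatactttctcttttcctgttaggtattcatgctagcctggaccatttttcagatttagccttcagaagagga
It held 7 E-boxes, a number reached in 0.177% of promoter windows, and 0 MEF2 sites. Those with a first base at -139, -133, -125, -98 and -96 lie close together in a stretch rich in CA and TG. The part of that stretch in the number was not tested. The N-box (CCGGAA), a motif known from the utrophin promoter, was searched on both strands and was not in this window, while 14.9% of windows held it. No other Utrn window was searched. This window holds 2 CpG dinucleotides, and whether it is the promoter in which the N-box is known was not established.

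Dag1 encodes dystroglycan, which is cleaved into the laminin-binding subunit outside the cell and the membrane subunit that holds dystrophin. Its signal was 11.11, 11.07, 11.23 and 11.07 in knockout samples 1 to 4, against 11.19, 11.19, 10.95 and 10.96 in wild type samples 1 to 4. Wild type samples split into a higher and a lower pair, and all knockout samples but sample 3 lay between those pairs. The difference was 0.045 (SE 0.074, 95% interval -0.12 to 0.21, limma adjusted p = 0.926).

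The sarcoglycans are membrane proteins that assemble with each other before they join dystroglycan. They did not go the same way: the mean of Sgca was lower in knockout muscle, that of Sgcd higher, and Sgcb differed little. Sgca encodes alpha-sarcoglycan, the member limited to striated muscle. Its signal was 11.54, 11.62, 11.58 and 11.66 in knockout samples 1 to 4, against 11.79, 11.68, 11.79 and 11.71 in wild type samples 1 to 4. Every knockout sample lay below every wild type sample, though knockout sample 4 and wild type sample 2 were close. The difference was -0.15 (SE 0.057, 95% interval -0.27 to -0.022), a ratio of 0.90, with an unadjusted p of 0.0245 and an adjusted p of 0.526 in limma. With 1 sample left out the unadjusted limma p was 0.0178 to 0.0664, and over 0.05 without knockout sample 1 or 3 or wild type sample 1 or 3.

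Sgca lies on chromosome 11, as Hdac5 does, with 237 tested genes between them. Of those, 14 (5.91%, beside 7.90% of all genes) passed an unadjusted limma p of 0.05, 9 lower and 5 higher in knockout, and their median difference was -0.021. Sgcd lies on the same chromosome with 994 tested genes between it and Hdac5. Of these, 73 (7.34%) passed that threshold, 36 lower and 37 higher, and their median difference was -0.005. The part of the shared chromosome in the Sgca and Sgcd differences was not tested. Gene order was taken from RefSeq GRCm38.p6. Slow fibre markers were lower in the same arrays: the mean of 8 markers was 10.83 to 11.50 in knockout and 11.58 to 12.00 in wild type samples. Knockout sample 1 was the lowest and wild type sample 3 the highest array in both that mean and Sgca. Wild type sample 1 was the lowest wild type sample in that mean (11.58) but at 11.79 in Sgca. Wild type sample 2, at 11.99 in that mean, was the lowest wild type sample in Sgca (11.68). The part of fibre type in the Sgca difference was not tested.

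Sgcd encodes delta-sarcoglycan, which is made in smooth muscle as well as in muscle fibres. Its signal was 11.84, 11.75, 11.88 and 11.67 in knockout samples 1 to 4, against 11.59, 11.65, 11.59 and 11.53 in wild type samples 1 to 4. Every knockout sample lay above every wild type sample, with knockout sample 4 and wild type sample 2 closest. The difference was 0.19 (SE 0.062, 95% interval 0.059 to 0.33), a ratio of 1.14 with an interval of 1.04 to 1.26. In limma the unadjusted p was 0.0087 and the adjusted p 0.415.

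Markers of other cells ran partly with Sgcd. Knockout samples 1 and 3, the highest in Sgcd, were also the highest of all arrays in the mean of 8 macrophage markers (8.97 and 9.05, against 8.67 and 8.75 in knockout samples 2 and 4) and of 8 fibroblast markers (10.62 and 10.78, against 10.36 and 10.50). Wild type sample 2, the highest wild type sample in Sgcd, was the highest wild type sample in both means too, at 8.74 and 10.56. Knockout sample 2 went against this: it lay below wild type sample 2 in both means, yet above it and above knockout sample 4 in Sgcd. The mean of 7 smooth muscle and pericyte markers did not follow Sgcd within the knockout samples: it was highest in knockout sample 4 (10.48), the lowest of them in Sgcd. The part of these cells in the Sgcd difference was not tested.

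The windows of Sgca and Sgcd are shown together because these sarcoglycan genes had opposite differences. Both are RefSeq sequence of GRCm38.p6 on the minus strand, at chr11:94976278-94976577 for Sgca and chr11:47379276-47379575 for Sgcd, with E-boxes in capitals.
Sgca: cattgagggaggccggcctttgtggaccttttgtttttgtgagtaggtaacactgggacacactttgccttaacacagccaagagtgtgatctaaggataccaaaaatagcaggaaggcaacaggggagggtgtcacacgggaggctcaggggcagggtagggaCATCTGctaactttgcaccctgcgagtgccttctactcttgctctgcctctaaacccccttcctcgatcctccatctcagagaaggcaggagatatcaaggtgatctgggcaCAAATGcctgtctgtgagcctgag
Sgcd: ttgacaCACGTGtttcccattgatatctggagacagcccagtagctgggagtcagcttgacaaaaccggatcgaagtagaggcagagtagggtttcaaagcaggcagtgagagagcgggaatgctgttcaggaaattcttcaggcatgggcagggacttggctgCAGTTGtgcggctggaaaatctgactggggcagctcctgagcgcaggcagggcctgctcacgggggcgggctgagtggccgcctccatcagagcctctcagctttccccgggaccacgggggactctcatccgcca
Each held 2 E-boxes, and 0 MEF2 sites or N-boxes were found in either. The first base of the E-boxes was at -86 and 27 in Sgca and at -244 and -86 in Sgcd. In the window of Sgca there were 4 CpG dinucleotides and in that of Sgcd 12.

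Sgcb encodes beta-sarcoglycan, the partner of delta-sarcoglycan in the core of the sarcoglycan complex. Its signal was 12.22, 12.29, 12.15 and 12.27 in knockout samples 1 to 4, against 12.25, 12.19, 12.21 and 12.18 in wild type samples 1 to 4. The genotypes overlapped, and the difference was 0.027 (SE 0.056, 95% interval -0.094 to 0.15, limma adjusted p = 0.939). Its window at chr5:73647688-73647987 held 0 E-boxes.

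Sspn encodes sarcospan, a small protein with several membrane spans that binds the sarcoglycans. Its signal was 11.18, 11.10, 11.29 and 11.22 in knockout samples 1 to 4, against 11.12, 11.12, 11.18 and 11.14 in wild type samples 1 to 4. Knockout sample 2 was the lowest array and knockout sample 3 the highest, so the genotypes overlapped. The difference was 0.058 (SE 0.058, 95% interval -0.069 to 0.19, limma adjusted p = 0.861).

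Dtna encodes alpha-dystrobrevin, a relative of dystrophin that binds it and the syntrophins and is needed for a mature neuromuscular junction in mice. Of the 8 genes it had the smallest p. Its signal was 11.40, 11.40, 11.35 and 11.46 in knockout samples 1 to 4, against 11.20, 11.19, 11.22 and 11.18 in wild type samples 1 to 4. Every knockout sample lay well above every wild type sample, and the SD was 0.046 in knockout and 0.017 in wild type muscle. The difference was 0.20 (SE 0.053, 95% interval 0.088 to 0.32), a ratio of 1.15 with an interval of 1.06 to 1.25. Limma gave an unadjusted p of 0.00229 and an adjusted p of 0.264, and the adjusted p lay between 0.0975 and 0.513 over 16 alternative settings.

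**Figure D2:**
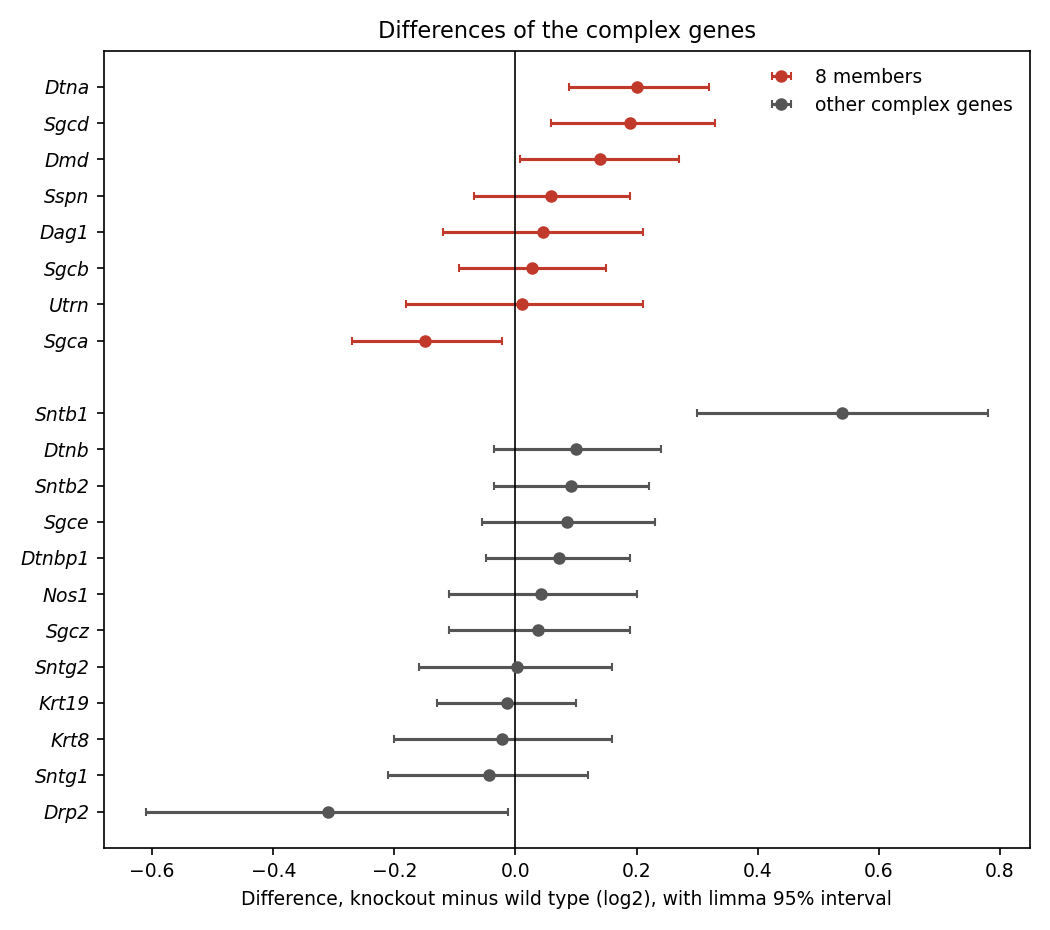
Difference in log2 signal, knockout minus wild type, with the limma 95% interval, for the 8 complex genes (top) and for 12 further genes of the complex (bottom), each block sorted by difference. The intervals of Dtna, Sgcd, Dmd and Sntb1 lie above 0 and those of Sgca and Drp2 below it, before adjustment over all genes.

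Pairs of the 8 genes ran in both directions from sample to sample. After each group's mean was subtracted, Pearson r over the 8 arrays was above 0 in 18 and below 0 in 10 of the 28 pairs. This is a description, since the arrays share their normalization and no p is given. The same counts were not taken over other gene pairs, so they are not read as a trait of the complex. Dmd and Dtna ran together, with r = 0.94 after subtraction, and r = 0.91 and Spearman rho = 0.93 before it. Knockout sample 4 was the highest and knockout sample 3 the lowest knockout array in both genes, and wild type sample 3 the highest wild type array in both. Sgcd ran against Dtna within the groups (r = -0.73) although both had higher means in knockout muscle. Sgcb and Sspn also ran against each other (r = -0.70), and these 3 pairs were the ones with r of 0.7 or more in size. Sgca and Sgcd had r = -0.88 and rho = -0.88 over all arrays, and r = -0.59 once the group means were removed.

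**Figure D3:**
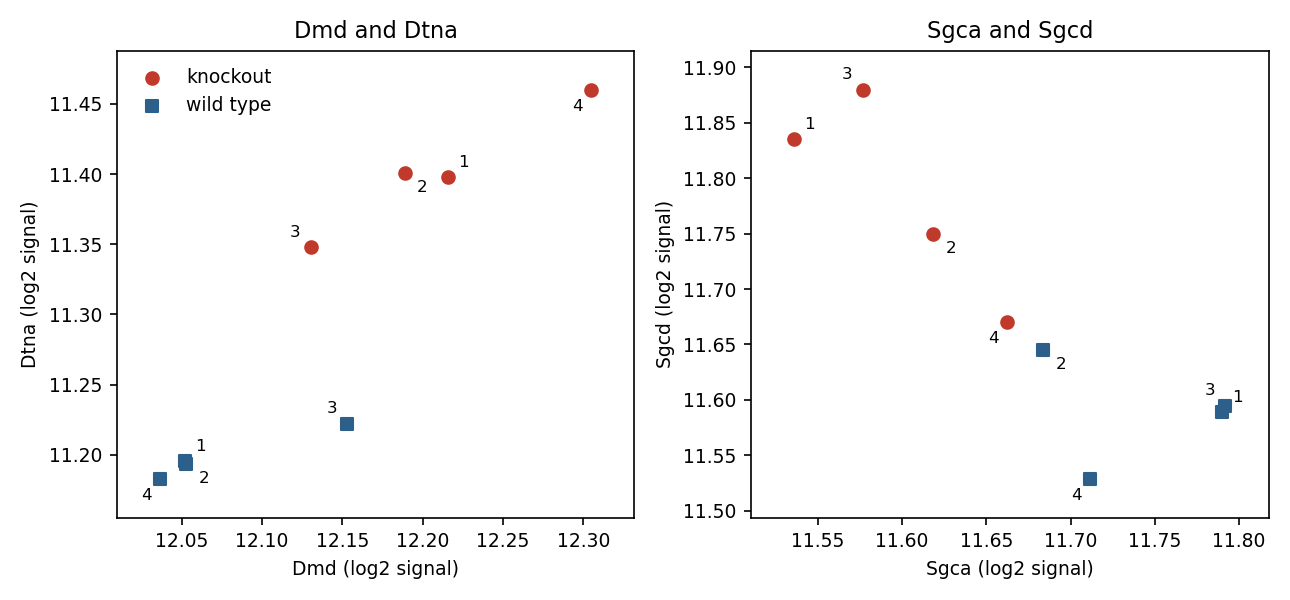
Log2 signals of Dmd and Dtna (left) and of Sgca and Sgcd (right), 1 point per array, with circles for knockout and squares for wild type and the sample number beside each point. Sample 4 is highest and sample 3 lowest of the knockout arrays in both Dmd and Dtna, and the arrays highest in Sgcd, knockout samples 1 and 3, are the lowest in Sgca.

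**Figure D4:**
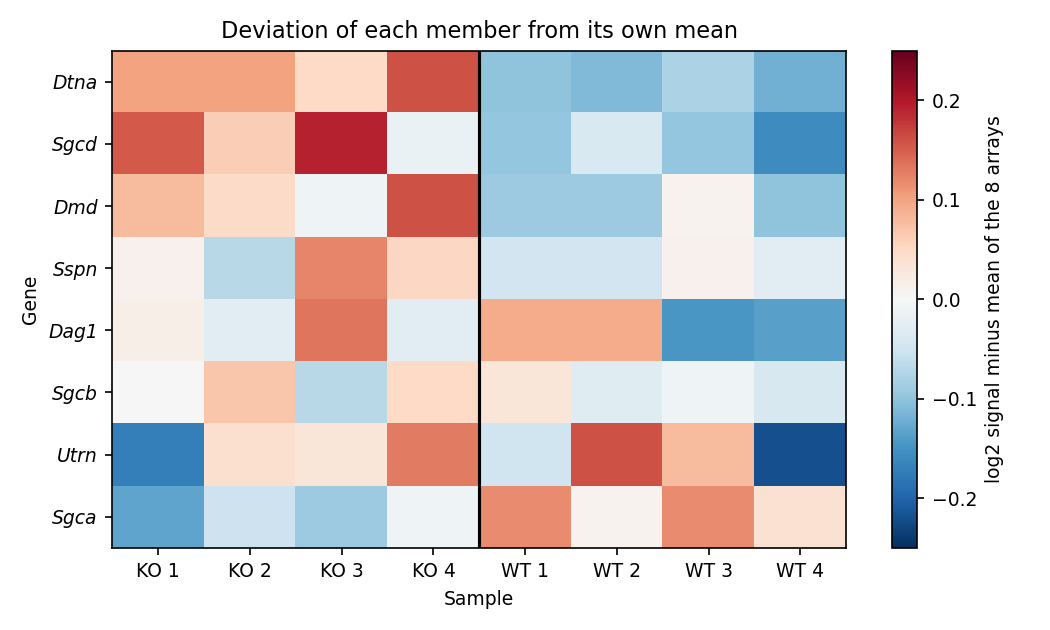
Deviation of each complex gene (rows, sorted by difference) from its own mean over the 8 arrays, on the log2 scale, with knockout samples 1 to 4 left of the line and wild type samples 1 to 4 right of it. Dtna is above its mean in all 4 knockout samples and below it in all 4 wild type samples. Sgca shows the same split in the opposite direction, while Utrn, Dag1 and Sgcb show no such split.

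Among 18788 other named genes, those with the profile most like Dmd over the 8 arrays were Thsd7a, which encodes a membrane protein with thrombospondin repeats (r = 0.947, rho = 0.95), Hdac9 (r = 0.940, rho = 0.95) and the complement component C6 (r = 0.932, rho = 0.88). Hdac9 is another class IIa deacetylase, and its own difference was 0.37 (limma adjusted p = 0.163). Without the 2 arrays farthest from the median of Dmd, r was 0.92 for Thsd7a, 0.86 for Hdac9 and 0.89 for C6. These genes were picked for the highest r over the same arrays, so high values on part of them are no independent check. After each group's mean was subtracted, r was 0.87, 0.85 and 0.82 in the same order. In all, 27 of the 18788 genes had r over 0.9 with Dmd. How many would reach this by chance with 8 arrays was not computed, so the matches are a description. For Utrn they were Sox7, a transcription factor known from endothelial cells (r = 0.971, rho = 0.98), the histone gene H2bc14 (r = 0.967, rho = 1) and Wscd1 (r = 0.964, rho = 0.98). Without the 2 farthest arrays r was 0.98, 0.91 and 0.84, and after subtraction of the group means 0.99, 0.97 and 0.97. In all, 45 genes had r over 0.9 with Utrn, and the same limits hold for them.

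Of the other genes of the complex and its close relatives, 12 of 14 listed were measured and 0 changed. At an unadjusted p under 0.05 in limma, 1 was higher, against 4.72% of all genes, and 1 lower, against 3.18%. The median difference was 0.040, and 0.012 to 0.068 with 1 sample left out. Sntb1 encodes beta-1-syntrophin, an adaptor that binds dystrophin and dystrobrevin. Its signal was 10.21, 10.09, 10.49 and 10.46 in knockout samples 1 to 4, against 9.82, 9.67, 10.03 and 9.58 in wild type samples 1 to 4, with no overlap. The difference was 0.54 (SE 0.111, 95% interval 0.30 to 0.78), a ratio of 1.45, with an unadjusted p of 0.000414 and an adjusted p of 0.134 in limma.

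Drp2, a dystrophin relative of Schwann cells, was at 7.63, 7.70, 7.99 and 7.89 in knockout samples 1 to 4, against 8.03, 8.58, 7.93 and 7.91 in wild type samples 1 to 4. Its difference was -0.31 (SE 0.136, unadjusted p = 0.0426 and adjusted p = 0.609 in limma), the genotypes overlapped, and the difference was -0.15 without wild type sample 2. The mean of 5 Schwann cell markers was 8.16 to 8.41 in knockout and 8.37 to 8.67 in wild type samples, with wild type sample 2 the highest in Drp2 and in that mean, and the part of nerve in the Drp2 values was not tested. Nos1, the neuronal nitric oxide synthase held at the membrane through the syntrophins, differed by 0.043 (95% interval -0.11 to 0.20). Dtnb, the beta form of dystrobrevin, differed by 0.10, the syntrophin Sntb2 by 0.091, epsilon-sarcoglycan Sgce by 0.086, the dystrobrevin-binding Dtnbp1 by 0.072 and zeta-sarcoglycan Sgcz by 0.038. The gamma syntrophins Sntg1 and Sntg2 differed by -0.043 and 0.003, and the keratins Krt8 and Krt19 by -0.022 and -0.014, where the sign of Krt19 turned under quantile normalization (0.010) and median centring (0.001). Limma adjusted p-values of these 10 genes were 0.75 or higher.

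Partners of the complex outside it were read through 6 further lists, in which 0 genes changed. Of 12 matrix ligands of dystroglycan and their basement membrane partners, 10 had a higher mean in knockout and 4 had an unadjusted p under 0.05 in limma, all higher, against 4.72% of all genes for that direction. The median difference was 0.116. Nid1, a linker of basement membrane laminin, differed by 0.31 (SE 0.090, limma adjusted p = 0.364), the laminin chain Lamb1 by 0.21 (SE 0.070) and Lamc1, the brightest, by 0.12 (SE 0.059). The mean of this list was highest in knockout sample 3 (9.86) and, among wild type samples, in sample 2 (9.77), the same arrays that led the fibroblast markers, and the part of fibroblasts was not tested.

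Enzymes that put the laminin-binding sugar chain on dystroglycan had a median difference of 0.014 over 13 genes, 1 of them higher at an unadjusted limma p under 0.05, which 4.72% of all genes were. Without wild type sample 4 that median was -0.016. The kinase Pomk differed by 0.17 (SE 0.072, unadjusted p = 0.0325 in limma), the mannose donor subunit Dpm1 by -0.14 and the transferase B3galnt2, the brightest, by -0.045. Integrin and costamere genes had a median difference of 0.026 over 19 genes, 3 of them higher at that threshold, and a median of -0.010 without wild type sample 4. Ank2, an ankyrin that helps to place dystrophin and dystroglycan, differed by 0.27 (SE 0.090), the integrin pathway adaptor Lims1 by 0.19 (SE 0.073) and Actn2, the brightest, by -0.070. Among 12 genes of membrane repair and caveolae, the median was 0.015 and 1 was higher at that threshold. Anxa1, an annexin of membrane repair, differed by 0.35 (SE 0.119), Cav1 by -0.11 and Cavin4, the brightest, by -0.058.

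Neuromuscular junction genes encode products that share the synaptic membrane with utrophin and alpha-dystrobrevin. Of 13, 0 changed, 10 had a lower mean in knockout and 2 had an unadjusted p under 0.05 in limma, both lower, against 3.18% of all genes. The median difference was -0.089. Musk, the receptor kinase that builds the synapse, was at 11.24, 11.25, 10.90 and 10.91 in knockout samples 1 to 4, against 11.60, 11.43, 11.47 and 11.43 in wild type samples 1 to 4, with no overlap (difference -0.41, SE 0.090, limma adjusted p = 0.180). The acetylcholine receptor subunit Chrnb1 differed by -0.25 (SE 0.077, limma adjusted p = 0.397).

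Genes known to be induced in regenerating or dystrophic muscle had a median difference of 0.043 over 13 genes, with 2 of them higher at an unadjusted p under 0.05 in limma, against 4.72% of all genes. The median was 0.107 without knockout sample 1, 0.003 without knockout sample 3 and -0.006 without knockout sample 4. The 2 genes were the matrix crosslinker Lox, at 0.40 (SE 0.146), and the lectin Lgals3, at 0.17 (SE 0.077). Ncam1, the brightest, differed by 0.024 (SE 0.094). Their limma adjusted p-values were 0.485, 0.615 and 0.971.

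**Figure D5:**
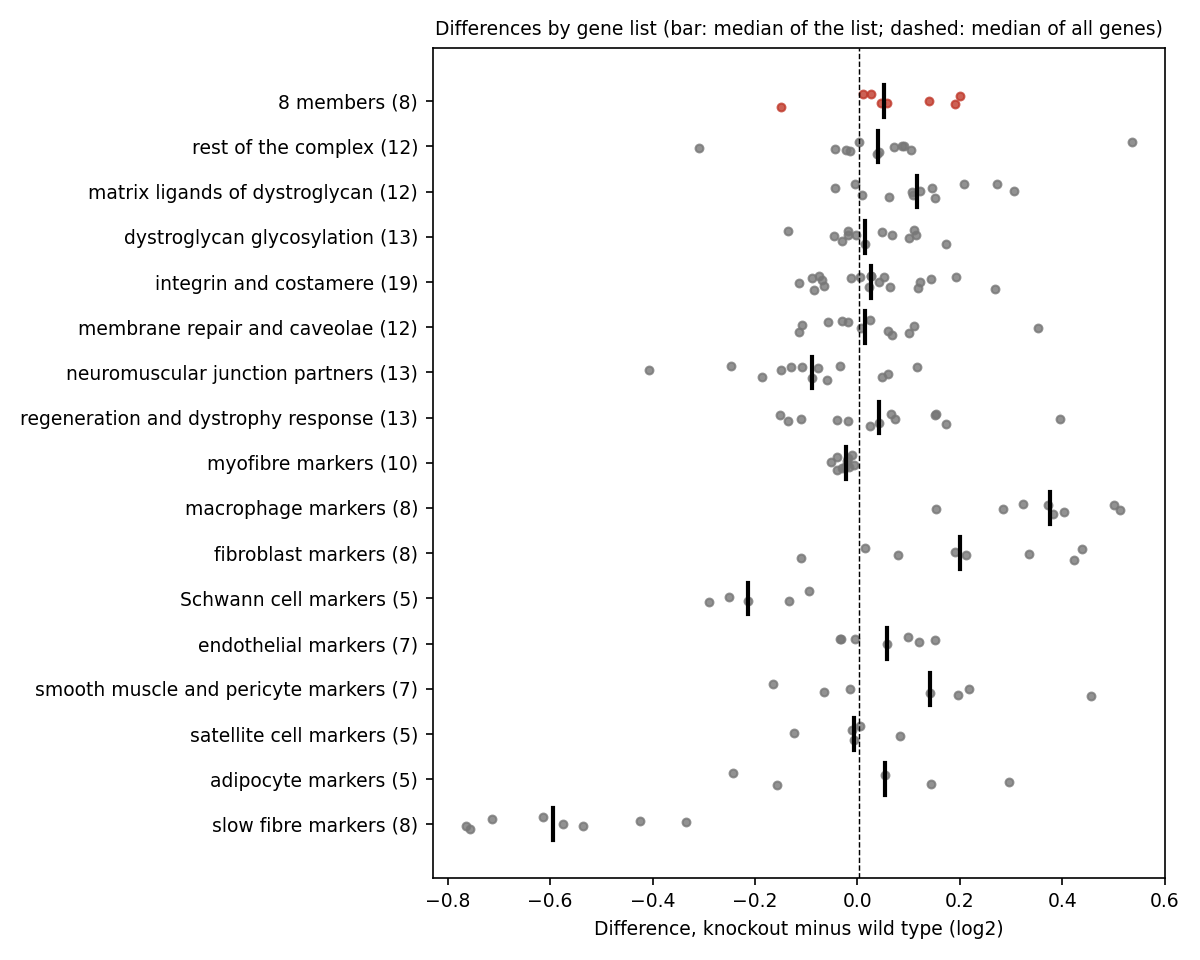
Difference in log2 signal, knockout minus wild type, of every measured gene (points) in the complex, the lists of its partners and the cell type marker lists, with the number of genes in brackets; bars are list medians and the dashed line is the median of all genes (0.003). The 8 complex genes lie between -0.15 and 0.20, while slow fibre markers lie lowest (median -0.594) and macrophage markers highest (median 0.377).

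Markers of the cells in the tissue gave the following values, with 0 genes changed in any of the 9 lists. Counts are at an unadjusted p under 0.05 in limma, a threshold passed upward by 4.72% and downward by 3.18% of all genes. The genes named are those of smallest p and the brightest, and Pdgfrb. All 8 slow fibre markers were lower, with the smallest p for Tnnc1 (-0.76) and Myl3 (-0.61) and Tpm3, the brightest, at -0.57. Of 8 macrophage markers 7 were higher, with the smallest p for Lyve1 (0.50) and Adgre1 (0.40) and Lyz2, the brightest, at 0.51. Of 8 fibroblast markers 4 were higher, with the smallest p for Col3a1 (0.44) and Fn1 (0.42) and Dcn, the brightest, at 0.080. Of 5 Schwann cell markers 2 were lower, Ncmap (-0.25) and Mbp (-0.29), with Pmp22, the brightest, at -0.21. Of 7 smooth muscle and pericyte markers Acta2 (0.46) and Myh11 (0.22) were higher and 1 was lower, with Des, the brightest, at -0.065. Endothelial markers had a median difference of 0.057 (Emcn 0.15, Tek 0.12, Cdh5 -0.005, which turned to 0.010 under median centring), satellite cell markers -0.007 (Myf5 -0.12, Vcam1 0.083, Cdh15 -0.007, which turned to 0.008 under median centring), adipocyte markers 0.053 (Plin1 -0.24, Fabp4 0.053; Plin1 was -0.016 without wild type sample 2) and myofibre markers -0.022 (Acta1 -0.039, Mb -0.039), with 1 of these 27 genes, Myf5, at an unadjusted p under 0.05 in limma. The mean of the 10 myofibre markers was 14.22 to 14.27 in knockout and 14.25 to 14.27 in wild type samples.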

How the data were processed

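RNA from gastrocnemius of 4 knockout and 4 wild type samples was read on Affymetrix mouse gene arrays. Per the labels, RNA had to exceed an integrity number of 8, and 150 ng of it was amplified and labelled with biotin. The deposited log2 values were made by the authors with Affymetrix Expression Console 4.0, per the submitters' processing notes; the sources used here do not name the background correction, summarisation or normalization. The values themselves show the log2 scale. Array medians lay between 7.69 and 7.77. The number of arrays limits the precision.

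The platform annotation gave a single symbol for 21789 of 35556 probe sets, several for 1621 and none for 12146. Of the named probe sets 21698 matched the RefSeq table (GRCm38.p6) by Entrez identifier. For the 999 genes with several probe sets the brightest was used, which left 19938 genes. Genotypes were compared with limma 3.58.1 in R 4.3.3 (lmFit and eBayes, genotype alone), with Benjamini-Hochberg adjustment over all genes, after the script was tested on simulated data. Tables and plots used Python 3.11.15 and matplotlib 3.10.9. Promoter windows were RefSeq's, found for 7 of the 8 genes.

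The complex genes and the gene lists were chosen with earlier results of these data known. Of 174 list entries, 157 were measured, and the others are not analysed here. The text names every measured gene of the first list, and from each other list the 2 genes of smallest p and the brightest, and the 3 genes most like Dmd and Utrn. Pdgfrb is named besides, while Bgn, Nid2 and the other list genes enter counts alone. Alternatives were each sample left out, samples knockout 1 and wild type 4 both left out, quantile normalization, median centring, a filter on dim genes (lower 25%), trended and robust eBayes, array weights, the mean of a gene's probe sets and the replicate number as a block.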

Additional observations from a re-analysis of the deposited data

Results flagged for a closer look

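In groups of 4, an array was singled out where its gap to the nearest other array exceeded Dixon's critical share of the group's range. Chance singles out about 1 in 20 groups, or 6.3 of the 126 groups examined, and 10 were found. In the complex, Dmd in wild type sample 3 was at 12.15, with the other wild type samples at 12.04 to 12.05, and it is the only wild type sample above a knockout sample in Dmd. Among its further genes, Nos1 in wild type sample 3 was at 11.08 (others 10.88 to 10.90), Drp2 in wild type sample 2 at 8.58 (others 7.91 to 8.03) and Sntg1 in wild type sample 4 at 6.50 (others 6.23 to 6.26). Krt19 in wild type sample 4 was at 7.06 (others 7.11) and Krt8 in knockout sample 1 at 7.98 (others 8.20 to 8.23). Hdac5 in knockout sample 4 was at 8.39 (others 8.31 to 8.32). Among the markers, Tpm3 in knockout sample 1 was at 11.59 (others 12.23 to 12.33), Dcn in knockout sample 1 at 13.85 (others 13.78 to 13.79) and Fabp4 in wild type sample 2 at 12.03 (others 11.68 to 11.73).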

How the results depend on the processing

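With 4 arrays per genotype, 0 of the 8 complex genes changed in any of the 16 alternatives, with a lowest limma adjusted p of 0.0975 (Dtna, trended and robust eBayes). The number at an unadjusted p under 0.05 in limma was 2 to 3 with 1 sample left out (2 when knockout sample 1, or wild type sample 1, was left out). It was 2 with the outer arrays of the first principal component, knockout 1 and wild type 4, both left out. Dtna and Sgcd stayed under it in all 16. The number of changed genes overall was 13 with all samples and 5 to 20 with 1 left out (5 without wild type 2 or 4, 7 without knockout 2, 8 without knockout 1 or wild type 1, 20 without knockout 4), 5 without both outer arrays, 23 with quantile normalization, 36 with dim genes left out, 44 with trended and robust eBayes and 31 with array weights. With the replicate block it was 30, with 4 slow fibre markers and 0 complex genes among them. Also, 1 slow fibre marker passed with knockout 3 left out, with dim genes left out or with array weights. After subtraction of the group means, same-numbered samples had correlations of 0.338, -0.115, -0.153 and 0.34. Samples with different numbers had -0.326 to 0.204. The numbers were not taken to pair samples, but these values cannot settle whether same-numbered samples share an order or batch, which was not tested. The differences of 7 complex genes kept their sign in all 16; the uncalled difference of Utrn was -0.061 to 0.07 with 1 sample left out, -0.013 with quantile normalization, -0.030 with array weights and -0.002 without both outer arrays. Other uncalled signs that turned with 1 sample left out were those of Sgcz (-0.018 to 0.072), Sntg1 (-0.075 to 0.021), Sntg2 (-0.054 to 0.034), Krt8 (-0.061 to 0.044), Ncam1 (-0.064 to 0.11), Cdh5 (-0.05 to 0.077) and Cdh15 (-0.038 to 0.035). Without both outer arrays Sntg1 was 0.060, Krt8 0.10 and Cdh5 0.086. With array weights Sntg2 was -0.018, Krt8 0.032 and Cdh5 0.030. With median centring Krt19 was 0.001, Cdh5 0.010 and Cdh15 0.008, and with quantile normalization Krt19 was 0.010. With 1 sample left out the list medians ran from -0.029 (without knockout 2) to 0.113 for endothelial, -0.034 to 0.035 for satellite cell and -0.3 (without wild type 3) to 0.213 (without wild type 2) for adipocyte markers. The causes were not tested.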
